A study of Arabidopsis thaliana with 6 samples.

Results

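SWEET9 to SWEET17 are the Arabidopsis genes of SWEET clades III and IV, numbered in the family of sugar carriers that let sugar cross a membrane down its gradient. Genes with these symbols were taken where the ATH1 annotation gives a probe set exactly 1 gene, which left 7 of the 9 genes, each on 1 probe set, out of 13356 genes that are alone on a probe set. These are SWEET9, SWEET10, SWEET11, SWEET13 and SWEET14 of clade III, and SWEET16 and SWEET17 of clade IV. SWEET12 is given no separate probe set there and was not analysed here. SWEET15 has one under its other symbol, SAG29, and is given beside the 7 without being counted among them.

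The lib mutant, in the Columbia-0 background, was compared with wild type Columbia-0, with 3 arrays per genotype that the labels call biological replicates. Both groups were 8 days old, untreated, and grown on vertical agar plates holding half-strength MS salts and 1% sucrose. Each day had 16 h of light, then 8 h of darkness. The series title places lib in a partial deficiency of isoleucine, and the labels name neither its gene nor its allele, so no targeted gene was checked. The labels of the samples give whole seedlings as the tissue, where the design text gives roots. They do not say how many plants went into a sample.

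SWEET proteins carry sugars without using a proton gradient, in either direction. Clade III members mainly move sucrose across the plasma membrane: SWEET11 and SWEET12 release it from phloem parenchyma cells ahead of phloem loading, SWEET9 into nectar, SWEET13 and SWEET14 in anthers, and SWEET15 in seeds and ageing leaves. SWEET16 and SWEET17 sit in the vacuolar membrane, where SWEET17 carries fructose and SWEET16 carries several sugars. Roots are a known site of SWEET17 expression.

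Values are MAS5 signals, 1 per probe set and array, which were compared on the log2 scale. A gene is said to have risen or fallen where the limma fit over the 22746 probe sets gave an adjusted p under 0.05. A fold change is the mean log2 signal of lib minus that of wild type, given with its standard error (SE) and, in places, its 95% confidence interval. Signals of different probe sets depend on their probes, so levels are compared between arrays and not between genes; the median signal of all probe sets is used below to mark dim ones, where MAS5 values scatter more. The median log2 signal per array was 7.40 to 7.52, and 405 to 734 probe sets per array stood at the lowest value of the table. Of the shoot markers 4 of 6 were measured, and their summed signal was 1092 to 1492 in lib and 1658 to 2636 in wild type. Most of that sum was LHCB4.1, at 730 to 981 in lib and 1054 to 1718 in wild type. PRK (-0.70, adjusted p = 0.276) and SBPASE (-0.28, adjusted p = 0.696) overlapped between the groups and did not pass. LHCB4.1 (-0.62, adjusted p = 0.0376) and RCA (-0.62, adjusted p = 0.0493) fell. These calls were lost in 7 and 11 of 13 alternative settings, and with 1 array left out the adjusted p was 0.0212 to 0.122 for LHCB4.1 and 0.0560 to 0.151 for RCA. Of the root markers 3 of 7 were measured, with a summed signal of 13542 to 15628 in lib and 17811 to 21898 in wild type. Most of that sum was PYK10, at 11847 to 14024 in lib and 16373 to 20685 in wild type. PYK10 fell (-0.47, adjusted p = 0.0393), a call lost in 10 of 13 settings (0.0623 to 0.121 with 1 array left out). The root hair genes EXPA7 (0.20) and EXPA18 (0.00) overlapped between the groups and did not pass. None of the shoot or root markers measured was at the lowest value on any array. The part of these markers in the results below was not tested.

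Of the 7 genes, 2 fell in lib and 1 rose, where 10.3% of all probe sets fell and 10.4% rose. The 2 that fell have a mean above the median, where 34.1% of probe sets were called in either direction. The 1 that rose has a mean below it, where 7.31% were called. SWEET16 fell to 40.4% of the wild type signal, SWEET11 fell to 54.7%, and SWEET14 rose to 261%. SWEET9, SWEET10, SWEET13 and SWEET17 did not pass. The median log2 fold change of the 7 was -0.22, beside -0.04 over all probe sets.

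**Figure D1:**
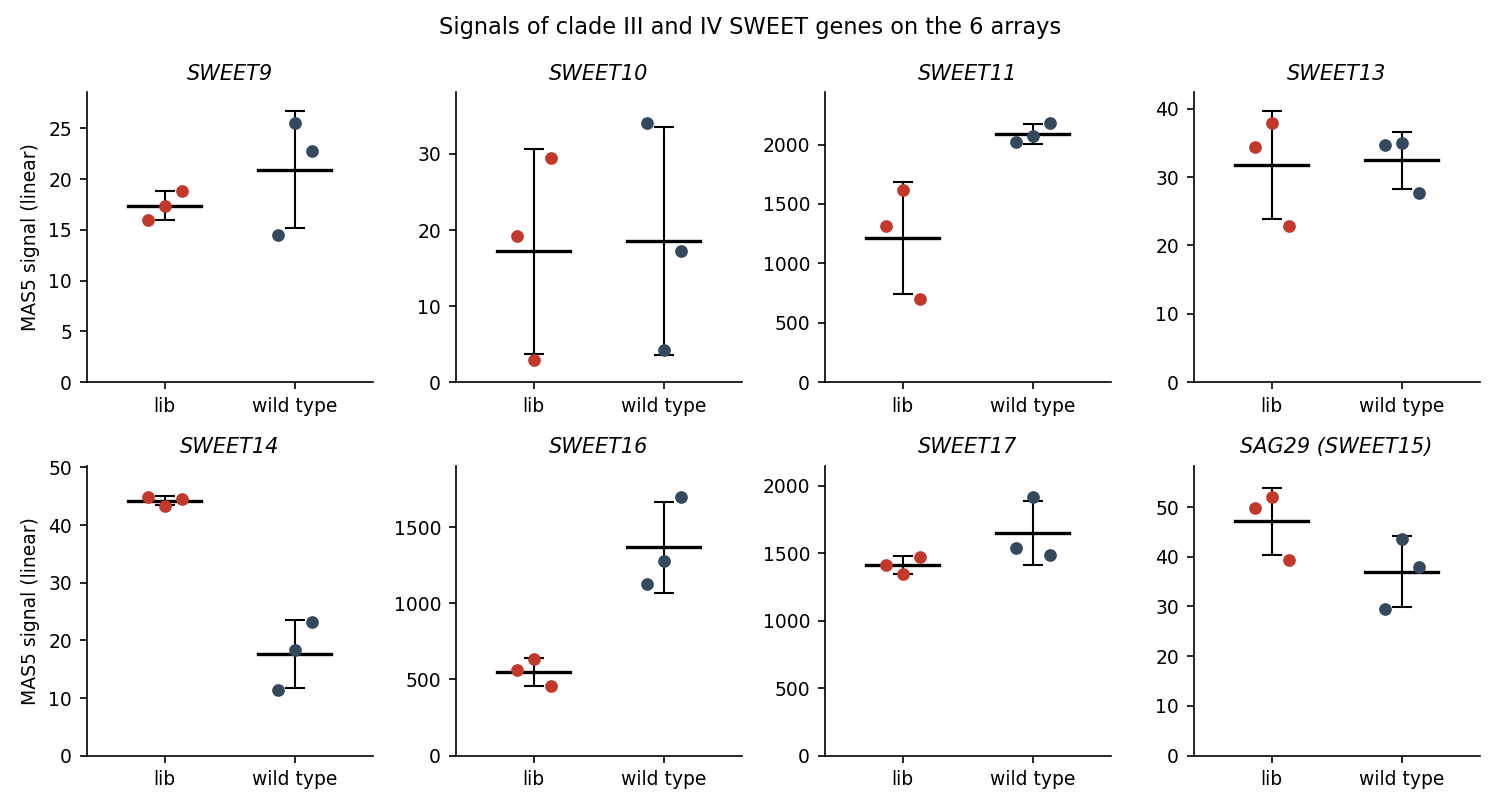
MAS5 signal (linear axis from 0, scaled per gene) of the 7 SWEET genes and of SAG29, with lib left of wild type. Each point is 1 array, the broad line is the mean and the bar is the SD (n = 3). The lib points lie below the wild type points for SWEET11, SWEET16 and SWEET17 and above them for SWEET14, and the groups overlap for the other genes.

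SWEET16, the clade IV carrier with several substrates, had signals of 559, 632 and 455 on the lib arrays and 1124, 1275 and 1700 on the wild type arrays. Every lib array lay below every wild type array, with a wide gap between the groups. The mean log2 signal was 9.09 ± 0.24 in lib and 10.39 ± 0.31 in wild type (SD, n = 3 each). The log2 fold change was -1.31 (SE 0.17, interval -1.69 to -0.92, adjusted p = 0.00107), so the fall passed the 2-fold limit that the design text uses. Among all probe sets, 2.5% fell by at least 2-fold, and 4.72% had a lower fold change than SWEET16. In whole-tissue RNA, fewer cells expressing a gene and less of its RNA per cell cannot be told apart. SWEET16 kept its call in each of the 13 alternative settings, with a log2 fold change between -1.44 and -1.14 and an adjusted p between 0.000165 and 0.0285.

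SWEET17, the fructose carrier of the same clade, had signals of 1416, 1347 and 1475 in lib and 1542, 1921 and 1488 in wild type. The 3 lib arrays were below the 3 wild type arrays, but lib replicate 3 and wild type replicate 3 nearly met. Its log2 fold change of -0.22 (SE 0.11, adjusted p = 0.219) did not pass, and the interval of -0.47 to 0.04 holds both no change and a modest loss. The lib signal lay between 72.2% and 103% of wild type by that interval. The change of SWEET16 minus that of SWEET17 was -1.09 on the log2 scale. On each array the log2 difference between the 2 genes was -1.70 to -1.09 in lib and -0.59 to 0.19 in wild type, so the groups did not overlap. An exact two-sided permutation test of that difference gave p = 0.1, the smallest that 3 against 3 arrays allow.

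SWEET11, the clade III sucrose exporter of phloem parenchyma, had signals of 1318, 1619 and 698 in lib and 2018, 2070 and 2181 in wild type. Each lib array was below each wild type array, and lib replicate 3 was far below the other lib arrays. The lib arrays varied more, with a coefficient of variation of 38.8% in lib and 3.98% in wild type. The mean log2 signal was 10.16 ± 0.63 in lib and 11.03 ± 0.06 in wild type (SD, n = 3 each), which put the fold change at -0.87 (SE 0.25, interval -1.45 to -0.30, adjusted p = 0.0398). Without lib replicate 3 the fall was -0.52 (adjusted p = 0.0183). The call was lost without lib replicate 1 (adjusted p = 0.0735), without wild type replicate 1 (0.108), 2 (0.106) or 3 (0.122), and without the intensity trend (0.154). None of the 6 phloem or 3 xylem markers is alone on a probe set in the annotation, which leaves 8730 probe sets without a gene. The amount of vascular RNA was therefore not analysed here.

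SWEET14, a clade III sucrose carrier known from anthers, was the member that rose. Its signals were 44.9, 43.4 and 44.4 in lib and 11.4, 18.4 and 23.2 in wild type. The 3 lib arrays were nearly equal and lay above the 3 wild type arrays, which spread about a lower level. The mean log2 signal was 5.47 ± 0.03 in lib and 4.08 ± 0.52 in wild type (SD, n = 3 each), which put the fold change at 1.38 (SE 0.40, interval 0.48 to 2.29, adjusted p = 0.0389). Among all probe sets, 2.44% rose by at least 2-fold.

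These SWEET14 signals are dim, below the median of all probe sets on each of the 6 arrays. Of the probe sets with a mean at or below the median, 7.31% passed the test, against 34.1% of those above it. With log2(signal + 16) the rise was 0.86 (adjusted p = 0.0177). The call was lost without lib replicate 1 (adjusted p = 0.118), 2 (0.100) or 3 (0.0948) and without wild type replicate 1 (0.0935) or 2 (0.0729).

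The remaining clade III genes were dim as well and showed no change that passed. SWEET13, the other sucrose carrier of anthers, had signals of 34.5, 37.9 and 22.9 in lib and 34.6, 35.0 and 27.7 in wild type. The groups overlapped almost fully, and the difference of -0.06 on the log2 scale had an SE of 0.37 (adjusted p = 0.944). Its interval of -0.89 to 0.77 leaves room for changes of less than 2-fold either way. SWEET9, the nectary carrier, had signals of 16.0, 17.4 and 18.8 in lib and 14.5, 25.5 and 22.8 in wild type. It stood at -0.23 (SE 0.44, interval -1.23 to 0.77, adjusted p = 0.773), and the lib arrays lay inside the range of the wild type arrays.

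SWEET10, a clade III gene known to be induced when plants switch to flowering, had signals of 19.2, 2.86 and 29.5 in lib and 34.1, 4.19 and 17.3 in wild type. Both groups held a very low array and overlapped throughout. The fold change of -0.20 had an SE of 1.02 (adjusted p = 0.923), and its interval ran from 17.6% to 429% of the wild type signal, so little can be read from this probe set. Leaving out 1 array at a time moved its fold change between -1.05 and 0.82. SWEET10 and SWEET13 are direct neighbours on chromosome 5 in the TAIR10.1 gene table.

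SAG29, the SWEET15 gene, which is known to be induced in leaf senescence, had signals of 49.8, 52.1 and 39.4 in lib and 29.4, 43.6 and 37.9 in wild type. The groups overlapped through lib replicate 3 and wild type replicate 2, and the fold change of 0.36 (SE 0.32, interval -0.37 to 1.08, adjusted p = 0.493) did not pass. Of the 9 senescence markers 2 were measured, with a summed signal of 179 to 230 in lib and 110 to 219 in wild type. SAG101 (0.45, adjusted p = 0.217) and WRKY53 (0.14, adjusted p = 0.849) did not pass. The lib arrays of SAG101 (97.7 to 143) lay above its wild type arrays (71.0 to 90.9). That held for 9.89% of the probe sets at or below the median, where SAG101 stands. WRKY53 overlapped between the groups. AMS, a regulator of the anther tapetum and the sole measured gene of the 5 nectary, anther and seed markers, read 2.56 to 3.59 on lib arrays and 2.88 to 20.6 on wild type arrays (-1.75, adjusted p = 0.204). Without wild type replicate 3, its low wild type array, AMS stood at -2.69 (adjusted p = 0.0325).

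**Figure D2:**
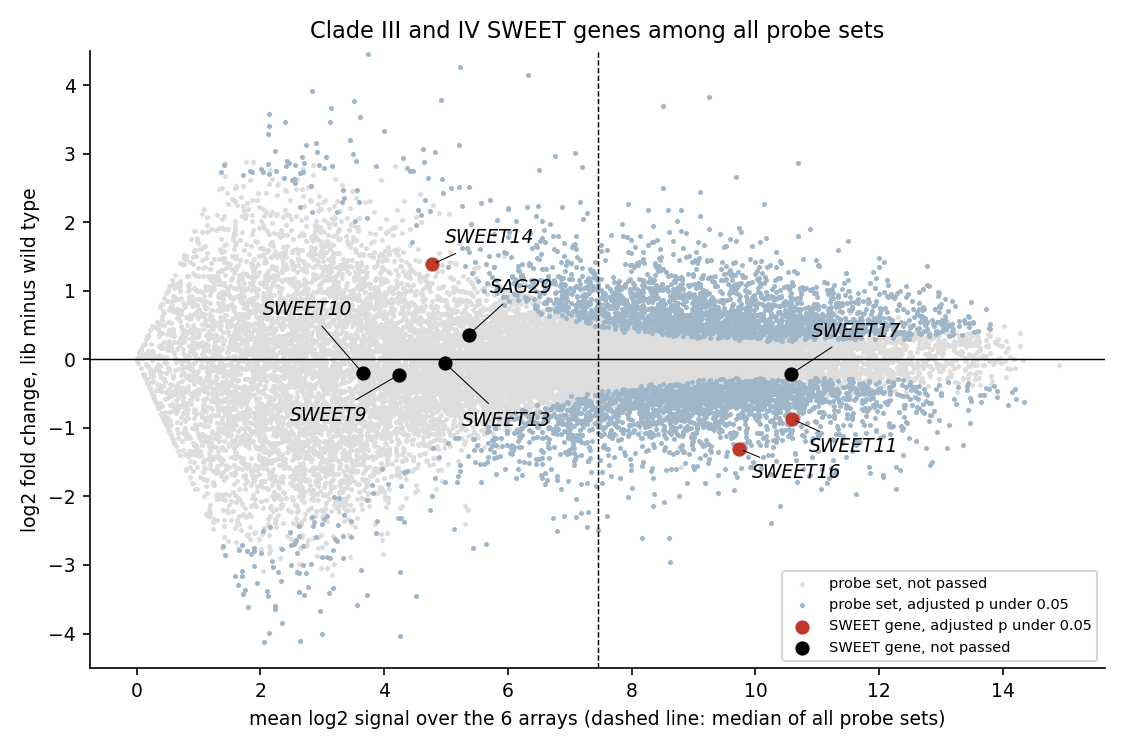
Log2 fold change, lib minus wild type, against the mean log2 signal over the 6 arrays, for each probe set (small points, darker where the adjusted p is under 0.05) and for the 8 SWEET genes (large points, red where they passed). SWEET11, SWEET16 and SWEET17 lie right of the dashed median, and SWEET14 lies left of it at 1.38, in a region where few probe sets passed. The plot leaves out 1 probe set whose change is larger than 4.5 in size.

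SWEET11, SWEET16 and SWEET17 had a mean above the median of the probe sets, and the other 4 genes did not. Each of these 3 had its lib arrays wholly below its wild type arrays, which held for 27.2% of the probe sets whose mean exceeded that median and 20.2% of all. Of the other 4, SWEET14 had its lib arrays wholly above, which held for 9.89% of the probe sets at or below the median and 18.0% of all. In either direction the groups were apart for 38.1% of all probe sets. The changes of the 7 genes were also set against each other in all 21 pairs. The groups did not overlap in 9 pairs, of which 4 involve SWEET16 and 5 involve SWEET14 (the pair of both counted in each). The remaining pair was SWEET11 and SWEET13. SWEET14 and SWEET16 were each apart on their own, in opposite directions, so their pairs largely repeat those differences. How often pairs of other probe sets are apart was not computed, so the count of 9 has no background share. SWEET14 minus SWEET16 had the widest difference of the 21 pairs, 2.69 on the log2 scale, with values of -3.86 to -3.36 in lib and -6.62 to -6.12 in wild type. For each of the 9 pairs the exact permutation p was 0.1, and 0.233 when adjusted over the 21 pairs, so no pair could pass at this number of arrays.

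Of the clade I and II genes on the same arrays, 1 of 8 fell and 0 rose, where 10.3% of all probe sets fell and 10.4% rose. SWEET2, a vacuolar carrier of root cells, fell by 2.14 (SE 0.17, adjusted p = 0.000150), with signals of 141, 132 and 200 in lib and 618, 761 and 679 in wild type. SWEET3 stood at -0.67 (adjusted p = 0.0617), with 197, 179 and 120 in lib and 300, 271 and 208 in wild type, again without overlap. SWEET3 passed among the probe sets above the median (adjusted p = 0.0255). The others, SWEET1, SWEET4, SWEET5, SWEET6, SWEET7 and SWEET8, had fold changes from -1.06 to 0.71 and overlapped, and SWEET5 was at the lowest value on 1 lib array. Whether the clades differ in their changes was not tested.

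**Figure D3:**
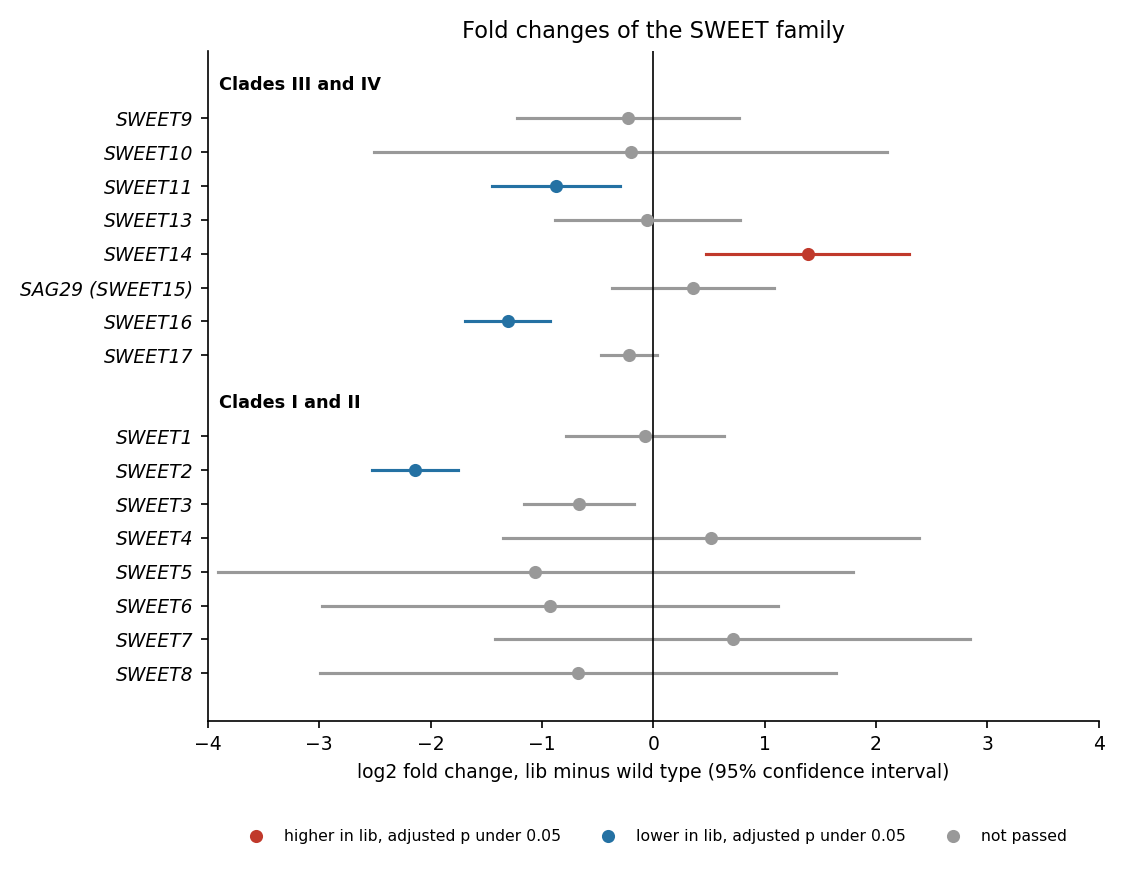
Log2 fold change, lib minus wild type, with its 95% confidence interval, for the clade III and IV genes (above) and the clade I and II genes (below). SWEET11 (-0.87), SWEET16 (-1.31) and SWEET2 (-2.14) are drawn as lower, SWEET14 (1.38) as higher, and the grey genes did not pass.

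Sugar that SWEETs move across the vacuolar membrane is also carried there by proton-coupled transporters, and invertases and fructokinases act on it. The 6 lists counted here are broader: sucrose-proton and hexose-proton symporters, vacuolar and ERD6-like carriers, sucrose synthases and invertases, hexokinases and fructokinases, and sucrose synthesis. Of their 69 genes, 21 had a probe set of their own in the annotation, of which 3 rose, 5 fell and 13 did not pass. The share called was 20.7% over all probe sets and 34.1% over those with a mean above the median, where 11 of the 21 genes stand. Their median log2 fold change was 0.21, beside -0.04 over all probe sets. None of the 9 sucrose-proton symporters was among the 21.

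In the list of vacuolar and ERD6-like carriers 2 of 6 measured genes fell and none rose (median -0.58), where 10.3% of all probe sets fell. TMT1, a proton-coupled importer of sugars into the vacuole, had signals of 1280, 1322 and 1257 in lib and 2839, 2820 and 3105 in wild type. The groups were tight and far apart, and the fold change was -1.18 (SE 0.08, adjusted p = 0.000122). SFP1, a carrier related to ERD6, fell by 0.59 (SE 0.09, adjusted p = 0.00219). Its lib arrays read 1319 to 1461 and its wild type arrays 2018 to 2254. TMT2, a close relative of TMT1, stood at -0.32 (adjusted p = 0.0655, and 0.0487 among the probe sets above the median), and SFP2, a relative of SFP1, at -0.79 (adjusted p = 0.104). AT5G17010 (VGT2), a vacuolar glucose transporter, was on the other side at 0.25 (adjusted p = 0.173), with its lib arrays at 326 to 352 and its wild type arrays at 271 to 304. TMT3 was dim and stood at -0.57 (adjusted p = 0.690). VGT2 and TMT3 were named after their values were seen.

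Both measured genes of the list of sucrose synthases and invertases, 16 genes in all, fell, where 10.3% of all probe sets fell. Both have a mean above the median, where 34.1% of probe sets were called in either direction. AT1G62660, an acid invertase of the vacuole that splits sucrose into glucose and fructose, had signals of 2109, 2041 and 1735 in lib and 3306, 3746 and 4452 in wild type (-0.96, SE 0.13, adjusted p = 0.00118). cwINV6, which is known to act on fructans, fell by 0.99 (SE 0.20, adjusted p = 0.00892). Its lib arrays read 113 to 183 and its wild type arrays 245 to 284.

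The fructokinases, which phosphorylate the fructose that SWEET17 and invertases deliver, went both ways: of 6 measured, 3 rose, 1 fell and 2 did not pass. Of all probe sets 10.4% rose and 10.3% fell. Of those with a mean above the median, where 4 of the 6 stand, 34.1% were called. No hexokinase of this list of 12 genes was measured. AT3G59480 fell, with signals of 360, 486 and 526 in lib and 1087, 1356 and 1188 in wild type (-1.42, SE 0.15, adjusted p = 0.000428). AT5G51830 rose by 0.69 (SE 0.13, adjusted p = 0.00554), with 662 to 873 in lib and 422 to 489 in wild type. AT1G66430 rose by 0.51 (adjusted p = 0.0332) and AT2G31390 by 0.41 (adjusted p = 0.0176). The call of AT1G66430 was lost in 8 of 13 settings, with an adjusted p of 0.0476 to 0.0963 when 1 array was left out, and lib replicate 1 was the array whose absence kept it. The call of AT2G31390 was lost in 4, among them without lib replicate 2 (0.0524) and without wild type replicate 1 (0.0713). AT1G06020 (0.36, adjusted p = 0.774) and AT4G10260 (0.11, adjusted p = 0.962), named after their values were seen, were dim and did not pass.

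No hexose-proton symporter passed among 4 measured of 14, and no sucrose synthesis gene among 3 of 7. Of all probe sets 20.7% were called, and 7.31% of those with a mean at or below the median. None of the 4 symporters and 1 of the 3 synthesis genes has a mean above it. Among these symporters and synthesis genes, AT5G26250 (STP8) came nearest, with signals of 21.5, 19.2 and 21.0 in lib and 36.5, 49.1 and 46.6 in wild type (-1.09, SE 0.35, adjusted p = 0.0560). STP8 passed without the intensity trend (adjusted p = 0.0215) and with log2(signal + 16) (0.0268). AT5G61520, AT1G34580 and AT3G19940, the other hexose symporters, were between 0.47 and 0.70. AT2G35840 at 0.21, AT3G54270 at 0.26 (both sucrose phosphatases) and ATSPS4F (a sucrose phosphate synthase) at 0.56 made up the synthesis list.

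**Figure D4:**
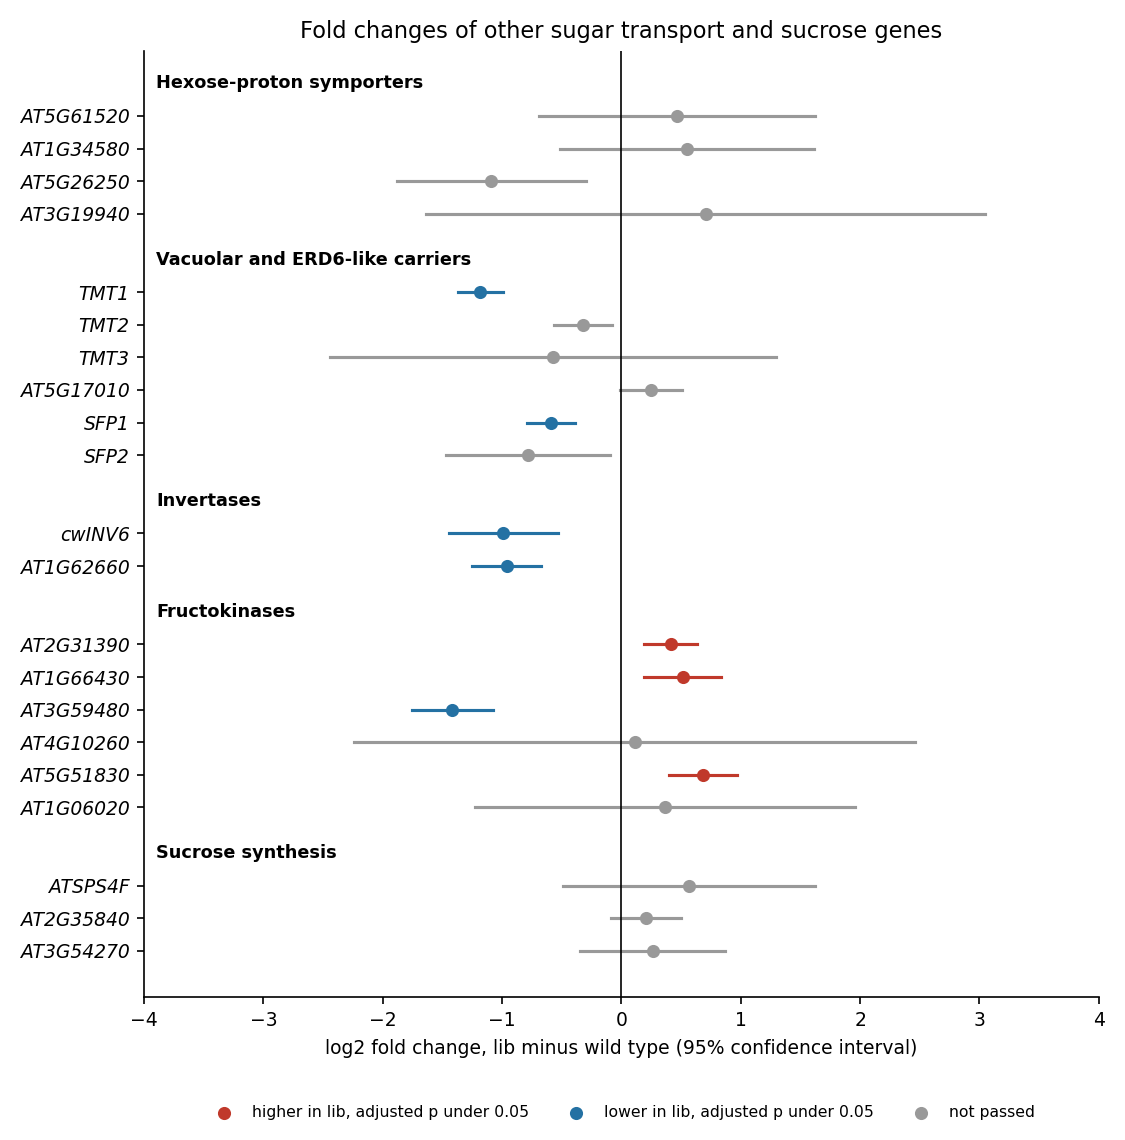
Log2 fold change, lib minus wild type, with its 95% confidence interval, for the 21 measured genes of the sugar lists other than SWEETs. TMT1 (-1.18), SFP1 (-0.59), cwINV6 (-0.99), AT1G62660 (-0.96) and AT3G59480 (-1.42) are drawn as lower, and 3 fructokinases as higher.

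The genes most like the members that passed were sought by the Pearson correlation of log2 signals over the 6 arrays, among genes with a mean above the median. The 6 arrays share the 2 genotypes, so a gene that differs between them can reach a high value. For SWEET16 the 5 nearest of 6069 candidates were AT5G39580 (a class III peroxidase, r = 0.9997), AT1G47530 (a MATE efflux carrier, r = 0.999), DPL1 (a lyase of sphingoid base phosphates, r = 0.999), AT3G54120 (r = 0.996) and AT5G18840 (an ERD6-like sugar carrier, r = 0.996). These 5 had fold changes of -0.98 to -0.43, and 667 candidates had r above 0.9. Each of the 5 passed, though AT3G54120 (adjusted p = 0.0453) lost its call in 9 of 13 settings, among them each with 1 array left out (0.0790 to 0.121). For SWEET11, with 429 candidates of r above 0.9, the nearest were AT3G16220 (0.997), AT1G72200 (0.996), AT4G08110 (0.996), ATPC2 (0.995) and AT1G10090 (0.993). Of those, AT3G16220 fell (-0.68, adjusted p = 0.0311) and the other 4 did not pass. AT3G16220 lost its call in 6 of 13 settings, among them without lib replicate 1 (0.0606) and without wild type replicate 1 (0.0872), 2 (0.0859) or 3 (0.0957). Without lib replicate 2, AT1G72200 (0.0407) and ATPC2 (0.0463) passed. For SWEET14, with 424 candidates of r above 0.9, the nearest were AT3G15240 (0.995), AT3G10530 (0.993), AT2G22230 (0.992), AT1G09160 (0.990) and AT4G40045 (0.989). These 5 rose by 0.55 to 0.76. With 1 array left out their adjusted p reached 0.0735 for AT3G10530 (lib replicate 1), 0.0932 for AT1G09160 (lib replicate 2) and 0.0530 for AT4G40045 (lib replicate 2).

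The authors' deposited table gives a ratio of lib to wild type for the same probe sets. In the authors' deposited table SWEET16 has a ratio of 0.402 with a p of 0.00513, and SWEET14 a ratio of 2.51 with a p of 0.0438. SWEET11 has a ratio of 0.580 with a p of 0.139 in the authors' deposited table, where its unadjusted limma p was 0.00748. The 2 come from different tests of the same signals. The other 4 ratios in the authors' deposited table lie between 0.831 (SWEET9) and 0.979 (SWEET13), with p-values from 0.194 to 0.889. Those p-values are unadjusted. Adjusting the column of the authors' deposited table by Benjamini-Hochberg puts SWEET16 at 0.0908, SWEET14 at 0.199 and SWEET11 at 0.351.

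**Figure D5:**
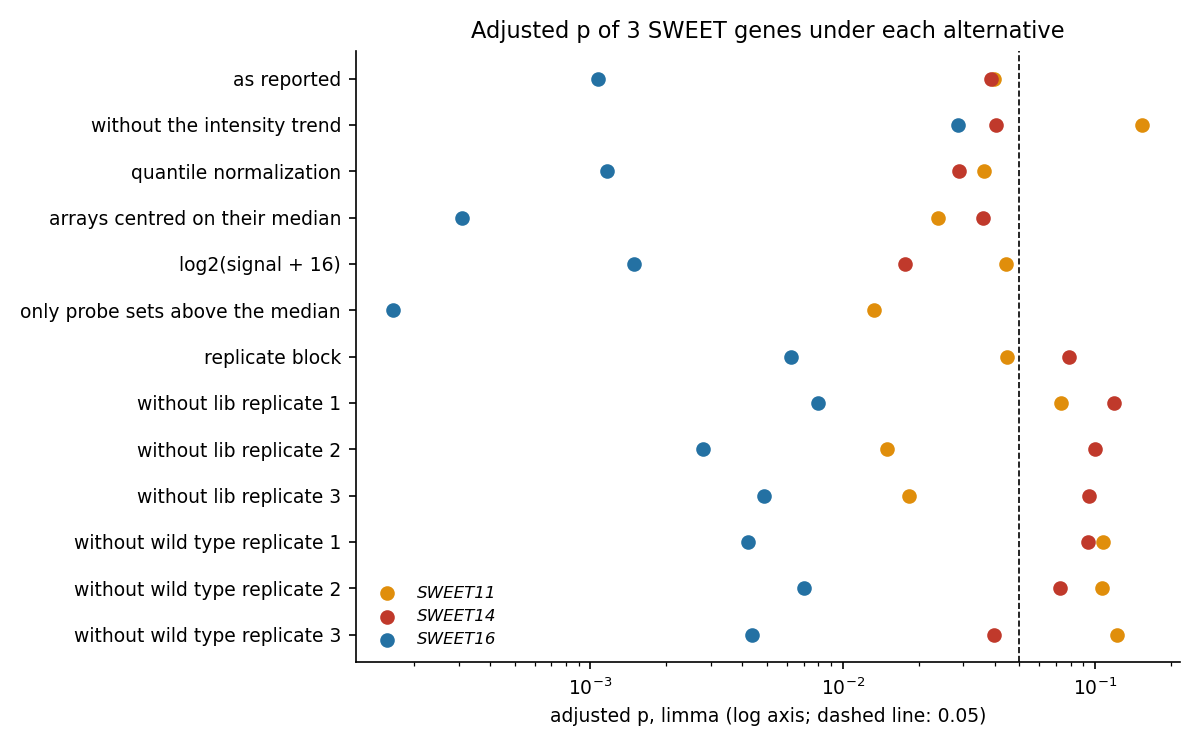
Adjusted p from limma (log axis, dashed line at 0.05) of SWEET11, SWEET14 and SWEET16 in the fit as reported and under each alternative setting. SWEET16 stays left of the line throughout, between 0.000165 and 0.0285, while SWEET11 and SWEET14 cross it in several settings. SWEET14 has no value among the probe sets above the median.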

How the data were processed

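The authors deposited log2 signals, 1 per probe set and array, which were used unchanged. The submitters' processing notes name MAS5 without a version. A second table deposited by the authors holds a p-value and a ratio per probe set. Each of the 22746 deposited ratios equals lib over wild type mean linear signals, within a relative 1e-05. Its p-values are unadjusted, and 22737 of them equal an unequal-variance comparison of the log2 values within 1e-05. Names came from the platform annotation (13513 with 1 gene, 503 with several, 8730 with none) and the TAIR10.1 gene table. The other list genes may be among the unnamed probe sets. All 22746 probe sets were fitted with limma 3.58.1 in R 4.3.3 (lmFit, eBayes with an intensity trend, two-sided, Benjamini-Hochberg adjustment), which was tested on simulated data. Pairs of members were compared by exact permutation (scipy 1.17.1). The number of arrays, 3 per group, limits the precision. The limma p-values rest on the spread between these samples, drawn toward that of other probe sets of like signal. Members and lists were chosen with earlier results of these data known. Named were the members, the SWEET1 to SWEET8 genes, markers, the 4 genes of smallest p in each sugar list, and the 5 genes most like each member that passed. Alternatives changed the trend, normalization, offset (16), dim-probe filter, threshold, replicate block and arrays used.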

Additional observations from a re-analysis of the deposited data

How the results depend on the processing

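The count of 3 SWEET genes called was 1 at an adjusted p under 0.01 and 1 to 2 when 1 array was left out. The count of 4708 probe sets called over the whole table was 2257 at an adjusted p under 0.01, 2383 without the intensity trend, and between 2705 (lib replicate 1 absent) and 3747 with 1 array left out. At a change of at least 2-fold, 1122 probe sets were called, and 598 when the probe sets below the median were left out, where fewer are tested. The 8 calls in the other sugar lists ranged between 6 and 9. Same-numbered arrays did not deviate together over all probe sets (correlations of deviations from the group means of 0.01, -0.02 and -0.03). The nearest wild type array of lib replicate 2 was replicate 3. These correlations cannot show a batch that touches few probe sets, so whether same-numbered arrays share one was not settled. With the replicate number as a block 3442 probe sets and 2 SWEET genes were called, SWEET14 stood at an adjusted p of 0.0786, and SWEET3 passed at 0.0326. Over 62 named genes and up to 13 alternatives each, 683 of 780 values stayed on their side of the threshold, 88 values of 14 genes lost a call and 9 values of 6 genes gained one. No called value changed sign, and 25 values that passed in neither setting did. A filter on detection calls was not run. Signal limits what can be read from SWEET9, SWEET10, SWEET13, SWEET14 and SAG29, which are dim on all 6 arrays; the causes of these shifts were not tested.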
